A study of Caenorhabditis elegans with 2 samples.

Results

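Small nucleolar RNA (snoRNA) genes were examined as places where ChIP-seq regions of the transcription factor ZAG-1 were listed in the nematode Caenorhabditis elegans. A listed region was taken when its summit, the base of highest signal, lay within 300 bp of the annotated start of a snoRNA gene and not within 300 bp of a tRNA gene start, and overlapping rows of the replicate 1 and replicate 2 lists were merged. This gave 147 regions of the 36977 merged regions in the lists, made from 76 rows of replicate 1 and 121 rows of replicate 2. All worms belonged to 1 group with 2 biological replicates, namely whole L4 larvae, male and female pooled, of strain OP83, whose genotype is unc-119(ed3) III; wgIs83. The unc-119(ed3) allele and the wgIs83 transgene, which adds a GFP-tagged copy of zag-1, were in every sample, so no group without the tag was analysed here. The antibody is labelled by its target, zag-1, alone. Tissue is not resolved, since whole animals were used, and a region seen in few cells cannot be told apart from one weakly bound in many. The replicate and pooled lists were deposited as peaks together with background, to be put into a test of reproducibility (irreproducible discovery rate, IDR), so a listed region is not by itself a binding site.

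snoRNAs are short nuclear RNAs that guide enzymes to other RNAs, above all ribosomal RNA. Box C/D snoRNAs, named after short sequences near their ends, direct ribose methylation by fibrillarin, and H/ACA snoRNAs direct pseudouridylation by dyskerin. Many lie in introns of protein-coding genes and are cut out of the spliced intron, while others have promoters of their own. Some C. elegans snoRNA genes are known to carry, just before the RNA, an A box and a B box, the sequences inside tRNA genes that recruit RNA polymerase III. ZAG-1 is the worm member of the ZEB family of zinc-finger homeodomain proteins, is known for its part in neuron differentiation, and is expected from other ZEB proteins to recognise CAGGTA or CAGGTG. The snoRNAs described here are annotated by a sequence ID, with no RNA target.

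A subset of snoRNA starts carries tRNA-like boxes, most of them just upstream. These sequences are shown first because the share of starts with a listed region differed with them. A pair was counted where a relaxed A box (TGG, any 3 bases, AG, any 2 bases, G) was followed on the snoRNA strand by a relaxed B box (TTCNANNC) that began 25 to 70 bases later, between 200 bases before and 50 bases after the start. Such a pair stood at 22 of 346 snoRNA starts, or 6.36% (Wilson 95% interval 4.24 to 9.44), and on the opposite strand of the same windows at 2. It stood at 27 of 19973 protein-coding starts, or 0.135%. The sequences below belong to 8 of the starts with a pair that had a region in both replicate lists, and show 80 bases before to 20 bases after the start (120 before for C51F7.3) on the snoRNA strand, with the A box and then the B box in capitals. In the ce11 build (WBcel235), they are chrII:10840237-10840336 (plus strand) for M106.6, chrII:11960818-11960917 (plus) for W03C9.9, chrIII:502724-502823 (plus) for F30H5.4, chrIV:7574042-7574141 (plus) for F32E10.10, chrIV:9477680-9477779 (minus) for F38E11.14, chrV:11314178-11314277 (plus) for T03F7.8, chrV:12303588-12303727 (plus) for C51F7.3 and chrV:15191074-15191173 (minus) for Y75B12B.12.
M106.6: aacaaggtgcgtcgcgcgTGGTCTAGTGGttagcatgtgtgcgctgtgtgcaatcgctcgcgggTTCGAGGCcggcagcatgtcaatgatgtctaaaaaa
W03C9.9: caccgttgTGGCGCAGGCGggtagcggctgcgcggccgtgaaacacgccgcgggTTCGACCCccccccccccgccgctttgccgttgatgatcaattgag
F30H5.4: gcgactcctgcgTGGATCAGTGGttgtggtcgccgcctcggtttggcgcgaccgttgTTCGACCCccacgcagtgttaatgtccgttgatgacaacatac
F32E10.10: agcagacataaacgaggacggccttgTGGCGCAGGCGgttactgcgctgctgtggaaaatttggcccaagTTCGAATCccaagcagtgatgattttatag
F38E11.14: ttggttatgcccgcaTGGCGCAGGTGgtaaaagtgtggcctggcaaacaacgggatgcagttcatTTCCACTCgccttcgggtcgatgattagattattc
T03F7.8: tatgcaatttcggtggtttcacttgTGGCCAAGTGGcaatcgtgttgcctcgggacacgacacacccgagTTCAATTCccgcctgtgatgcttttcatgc
C51F7.3: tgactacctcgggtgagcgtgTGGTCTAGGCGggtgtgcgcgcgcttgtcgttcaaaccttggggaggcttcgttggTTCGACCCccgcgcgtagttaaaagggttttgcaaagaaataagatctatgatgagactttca
Y75B12B.12: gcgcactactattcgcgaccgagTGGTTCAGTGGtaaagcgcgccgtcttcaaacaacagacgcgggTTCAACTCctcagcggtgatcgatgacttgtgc
In every sequence shown both boxes precede the annotated RNA, which begins 20 bases before the end of each line.

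Over the 22 starts the A box began at a median position of -59.5 from the start and the B box at -13, a median of 45.5 bases apart. With exact spelling and no spacing rule most boxes also lay shortly before the start. The exact words are special cases of the relaxed ones, so this is not a separate check. The exact A box (TGGC, any 2 bases, AGTGG) occurred at 14 starts on the snoRNA strand, at 0 on the other strand and at 0.0601% of protein-coding starts, and 12 of the 14 began 60 to 41 bases before the snoRNA. The exact B box (GTTCGANNC) occurred at 21 starts, with 4 on the other strand and 0.646% of protein-coding starts, and 15 of the 21 began 20 to 1 bases before the snoRNA. The relaxed spelling and the spacing were chosen after seeing the data, the upstream sequences and their regions included. C51F7.3 and its neighbour C51F7.4 share 1 A box and were counted as 1 pair, so the 22 starts hold 21 distinct pairs. Their listed B boxes differ, beginning at -43 from the C51F7.3 start and 40 bases after the C51F7.4 start. At C51F7.4 both boxes follow the start, with the A box beginning 10 bases after it. The pairs were found in several gene contexts: 10 starts lay in an intron of a protein-coding gene on the same strand, 8 outside any protein-coding gene, 3 in an intron of a gene on the opposite strand and 1 in an exon. T08B2.13 and Y59E1B.14 have an annotated tRNA pseudogene start within 300 bp of theirs, and the other 20 starts do not.

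Starts with the box pair had a listed summit within 300 bp more often than starts without it, in each list. In replicate 1 this was 13 of 22 starts with a pair (59.1%, Wilson 95% interval 38.7 to 76.7) and 63 of 324 without (19.4%, 15.5 to 24.1). In replicate 2 it was 16 of 22 (72.7%, 51.8 to 86.8) and 99 of 324 (30.6%, 25.8 to 35.8). As the pair was spelled with these regions in view, the shares are a description and the intervals are not read as a separation. Both lists had a summit at 11 of 22 starts with a pair (50%) and at 37 of 324 without (11.4%). In the list made from both replicates pooled it was 14 of 22 (63.6%) and 41 of 324 (12.7%), and in the IDR list 3 of 22 and 6 of 324. C51F7.3 and C51F7.4 share 1 region, which counts at both starts in every list. The 3 starts of the IDR list therefore hold 1 peak at both of these. With the exact spellings the difference was smaller. The intervals overlapped for both boxes in replicate 1 and for the exact B box in replicate 2. A summit was present at 6 of 14 starts with the exact A box in replicate 1 (42.9%, 21.4 to 67.4) and 70 of 332 without it (21.1%, 17.0 to 25.8), and in replicate 2 at 9 of 14 (64.3%, 38.8 to 83.7) and 106 of 332 (31.9%, 27.1 to 37.1). For the exact B box it was 8 of 21 (38.1%, 20.8 to 59.1) against 20.9% (16.9 to 25.7) in replicate 1. In replicate 2 it was 12 of 21 (57.1%, 36.5 to 75.5) against 31.7% (26.9 to 36.9). These intervals cover counting over starts, not variation between worms, and no test across starts was made.

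**Figure D1:**
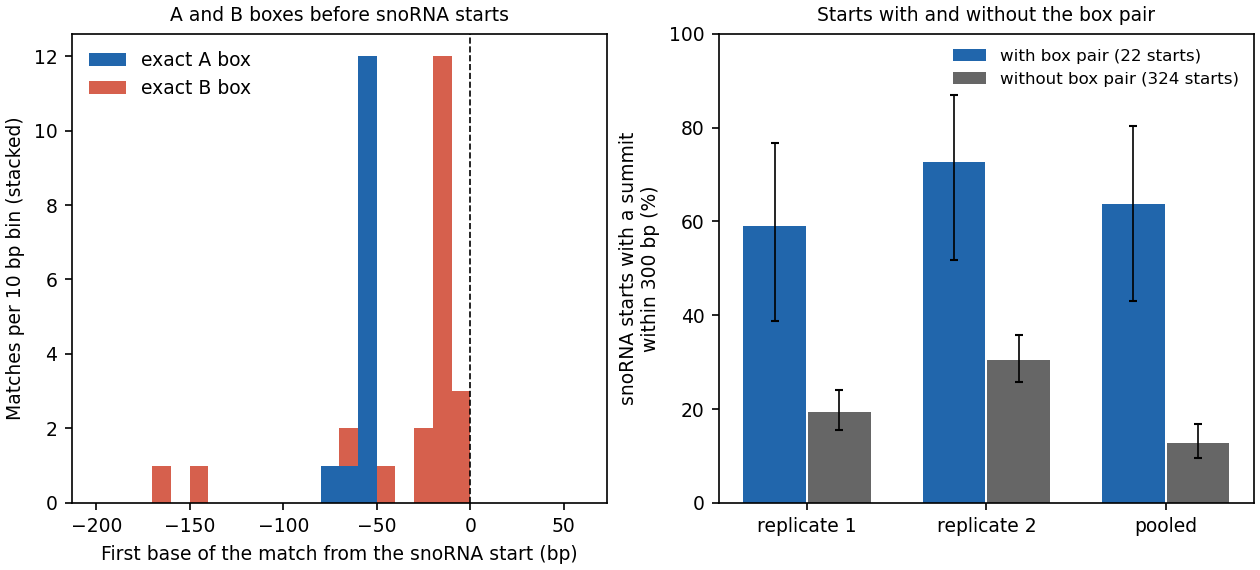
Left, number of exact A box (blue) and exact B box (red) matches per 10 bp bin, stacked, by the position of their first base from the snoRNA start (0, dashed). Right, percent of snoRNA starts with a summit within 300 bp for the 22 starts with the box pair (blue) and the 324 without (grey) in each list, with Wilson 95% intervals. The A boxes gather 60 to 41 bases before the start and the B boxes just before it, and starts with the pair are at 59.1% to 72.7% against 12.7% to 30.6%. The pair was spelled with these regions in view, so the contrast is a description.

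The summits at starts with a pair were spread widely on both sides of the start. The rule bounds their position at 300 bp, so a median near the start, and hence near the boxes, says little. Over all member rows the median position was 3.5 in replicate 1 and -16 in replicate 2. In the 17 regions with a pair, 10 of which had rows in both lists, the median summit position was 24 bp before the snoRNA start in the 13 rows of replicate 1 (positions -177 to 125) and 42 bp before it in the 15 rows of replicate 2 (-131 to 198). T03F7.8 had its summits 71 and 78 bp before the start, against an A box that begins at 55. F30H5.4 had its summits 125 and 111 bp before the start, in front of both boxes. F38E11.14 went the other way, with summits 111 and 137 bp after the start. Its row was weak in replicate 2 (signal 6.25, rank 25793 of 30000) and stronger in replicate 1 (16.5, rank 3627 of 11750). That region overlapped neither a pooled region nor an IDR peak. Within 200 bp of starts with a pair there were 15.9 summits per 100 starts and 100 bp bin in replicate 1, against 1.14 at 1000 to 2000 bp from them, and in replicate 2 there were 18.2 against 3.18. As the pair was spelled with these regions in view, this contrast is a description and not support for a link.

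Signal ranks of regions with the pair ranged widely. Signal is in a unit of the authors' caller and differs in scale between lists, so each row was given its percentile in its own list, with 100 the strongest. The 13 replicate 1 rows with a pair had a median percentile of 88.6 (13.3 to 97.5), and the 63 rows without had 75.8. In replicate 2 the 15 rows with a pair had a median of 72.5 (4.19 to 99.5), and the 106 without had 57.7. Single regions could be strong in one list and weak in the other. F32E10.10 had a signal of 12.8 (rank 10187 of 11750) in replicate 1 and of 17.2 (rank 625 of 30000) in replicate 2. R12E2.17, in an intron of the proteasome gene rpn-8, was the reverse, with 19.4 (rank 1613) in replicate 1 and 5.90 (rank 28744) in replicate 2.

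Exact A boxes elsewhere in the genome had lower shares with a summit. Of 13 exact A boxes upstream of a snoRNA start, 6 had a summit within 300 bp in replicate 1 (46.2%, 23.2 to 70.9) and 9 in replicate 2. Of 57 inside tRNA genes it was 12 (21.1%) and 20 (35.1%), and of 59 inside tRNA pseudogenes 9 (15.3%) and 12 (20.3%). Of 932 elsewhere it was 75 (8.05%) and 192 (20.6%). The upstream boxes had the highest share in both lists, but their intervals overlapped those of tRNA genes in both lists and that of tRNA pseudogenes in replicate 1.

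Across all snoRNA genes, 76 of 346 starts (22.0%, 17.9 to 26.6) had a summit within 300 bp in replicate 1, 115 (33.2%) in replicate 2 and 143 in at least 1 of them. Protein-coding starts gave 9.04% in replicate 1 and 20.4% in replicate 2. In the pooled list the share was 15.9% (55 starts) against 4.03% of protein-coding starts, and in the IDR list 2.60% (9 starts, at 8 peaks) against 0.461%. The shares of tRNA starts were close to these, with 23.7% in replicate 1, 30.9% in replicate 2, 14.5% in the pooled list and 1.80% in the IDR list. Genes of the spliceosomal and other snRNAs had 16.3%, 19.4% and 10.1%, and in the IDR list 4.65%, above snoRNA starts, and miRNA genes 14.9% and 24.9% in the replicates. Annotated tRNA pseudogenes, of which there are 209, had 9.09% and 18.2%, close to protein-coding starts. Without the 22 starts with the box pair, the snoRNA shares of 19.4%, 30.6% and 12.7% were still above the protein-coding shares.

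**Figure D2:**
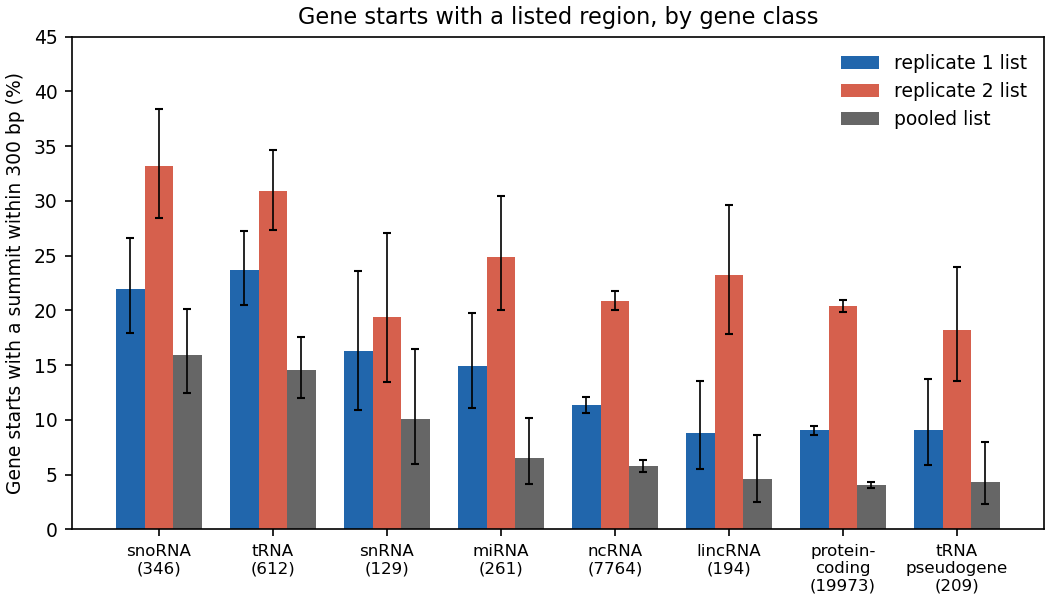
Percent of annotated gene starts with a listed summit within 300 bp in the replicate 1, replicate 2 and pooled lists, by gene class, with the number of starts in brackets and Wilson 95% intervals. snoRNA and tRNA starts have the highest bars in each list, at 22.0% and 23.7% in replicate 1 against 9.04% of protein-coding starts.

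The excess of summits was centred on the snoRNA start. Within 200 bp of it there were 4.55 summits per 100 starts and 100 bp bin in replicate 1 and 6.79 in replicate 2, against 1.66 and 3.74 at 1000 to 2000 bp, ratios of 2.74 and 1.81. The ratios were 4.52 and 2.25 at tRNA starts and 1.33 and 1.19 at protein-coding starts. The summits of the regions stood on both sides of the start, with a median position over both lists of 6 bp before it. Upstream summits made up 36 of 76 rows in replicate 1 and 64 of 121 in replicate 2, and 34 and 56 rows lay within 100 bp. As the rule bounds the position at 300 bp, the median says little beyond this balance.

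**Figure D3:**
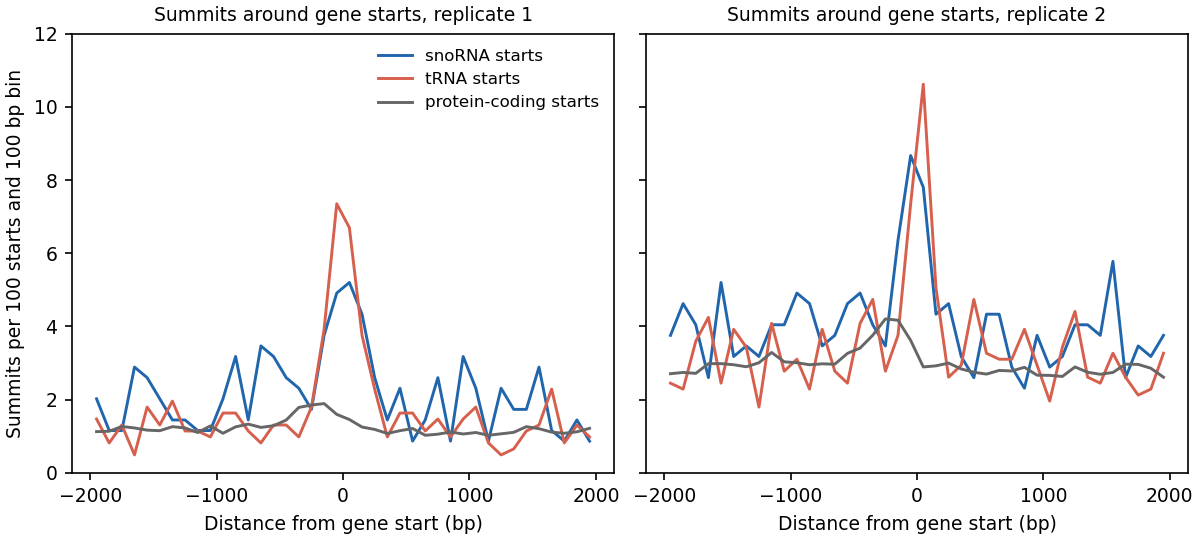
Listed summits per 100 starts and 100 bp bin, by distance from the gene start in the direction of transcription, for snoRNA, tRNA and protein-coding starts, in replicate 1 (left) and replicate 2 (right). snoRNA and tRNA starts show a narrow peak at the start, while protein-coding starts show a low rise before it.

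Just inside the 300 bp limit in replicate 1 were C26C6.13 (296 bp), T25C12.12 (294 bp) and K07C5.11 (281 bp), with signals of 21.1, 14.7 and 13.7, and just outside it rows at T19B4.8 (313 bp), H06I04.9 (319 bp) and Y24D9A.9 (328 bp), with 13.9, 21.0 and 28.4. In replicate 2 F37F2.4 (299 bp), C32F10.9 (297 bp) and W06H8.17 (291 bp) were inside, with signals of 16.1, 7.45 and 14.9, and rows at K02A11.12 (311 bp), T27A3.9 (314 bp) and ZK20.9 (318 bp) outside, with 5.99, 9.24 and 7.73. T19B4.8 and ZK20.9 had other rows inside the limit.

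Replicates shared these regions more often than the lists as a whole. Rows of both replicates made up 44 of the 147 regions (29.9%, 23.1 to 37.8), against 10.5% of all merged regions. A further 30 regions came from replicate 1 alone and 73 from replicate 2 alone, whose list is the longer. Of the 76 replicate 1 rows, 50 (65.8%) were overlapped by some replicate 2 row, against 34.4% of all replicate 1 rows, and of the 121 replicate 2 rows 49 (40.5%), against 13.6%. The 147 regions overlapped an IDR peak in 8 cases (5.44%, 2.78 to 10.4), against 0.66% of all merged regions, and a pooled region in 60 cases (40.8%), against 10.6%. In the 44 shared regions the summits of both replicates were a median of 53.5 bp apart.

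The regions stood above the middle of each replicate list by signal. Over the rows of both replicate lists the median percentile was 65.2. At snoRNA starts the median was 62.0 in the pooled list. Among the 8 peaks at snoRNA starts in the IDR list it was 35.0, below the middle of that list. In replicate 1 the median was 79.4 (quartiles 53.3 and 94.3), and 28 of 76 rows (36.8%) were in the strongest 10% of the list. In replicate 2 the median was 58.2 (quartiles 37.8 and 81.4), and 18 of 121 rows (14.9%) were in the strongest 10%. Rows shared by both lists were stronger in replicate 1 (median 88.5) than rows of replicate 1 alone (61.2), and the same held in replicate 2 (68.9 against 58.2). Over the 44 shared regions the ranks were weakly related (Spearman rho 0.296, given as a description, since the points share 1 pair of libraries).

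**Figure D4:**
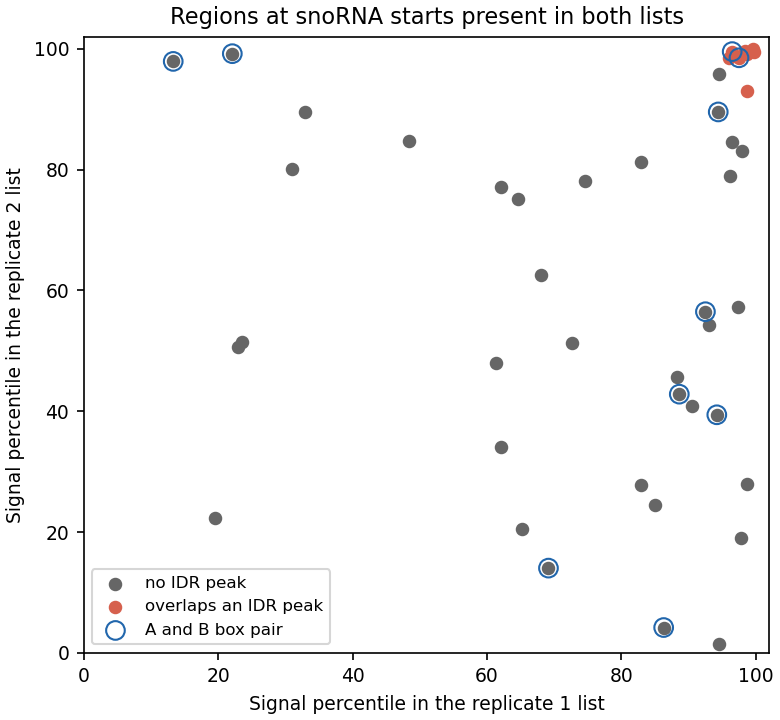
Signal percentile (100 strongest) in the replicate 1 list (x axis) and the replicate 2 list (y axis) of the 44 regions with rows in both lists. The regions that overlap an IDR peak (red) sit in the upper right corner, and regions with the A and B box pair (ringed) are spread over the plot.

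The 8 regions that overlap an IDR peak had the highest mean signal percentile of the 44 shared regions, and each is described here with its place in ce11. The IDR list was drawn from the same replicates by reproducibility, so this order is not independent of it. The region at F54E7.10 (WBGene00044941; chrIII:5678963-5679318) had a signal of 48.7 (rank 59) in replicate 1 and 53.3 (rank 20) in replicate 2. Its snoRNA lies in an intron of rps-12, a protein of the small ribosomal subunit, on the same strand, with the IDR summit 241 bp before the snoRNA and a replicate summit 133 bp from a protein-coding start. A region of the snoRNA and a region of the protein-coding gene start cannot be told apart here. The region at M7.15 (WBGene00220032; chrIV:11082823-11083197) had the highest replicate 1 signal of all 147, at 63.2 (rank 30), and 23.6 (rank 153) in replicate 2. Its IDR summit lay 152 bp before the snoRNA, outside any protein-coding gene, and the replicate summits were at least 675 bp from a protein-coding start, the nearest gene being klc-1, a kinesin light chain gene.

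Outside protein-coding genes lay also the region at F59C6.15 (WBGene00045164; chrI:10517045-10517400), with signals of 25.2 (rank 474) and 18.3 (rank 445) and a summit 52 bp before the snoRNA. The regions at ZK994.7 and ZK20.9 ranked above it in both lists. ZK994.7 (WBGene00044958; chrV:8500395-8500750) lies in an intron of pxn-1, a peroxidasin of the extracellular matrix, and had signals of 31.9 (rank 189) and 25.6 (rank 113), with the IDR summit 28 bp before the snoRNA and the replicate summits at least 5662 bp from a protein-coding start. ZK20.9 (WBGene00220236; chrII:11635138-11635624) lies outside protein-coding genes and had 33.9 (rank 158) and 20.9 (rank 255), with the summit 91 bp after the start. Its replicate summits were at least 1667 bp from a protein-coding start, the nearest gene being din-1, a nuclear receptor corepressor gene.

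Box pairs were present in 2 of the 8. T03F7.8 (WBGene00045071; chrV:11314009-11314364), in an intron of the cuticlin-like gene cutl-18 on the opposite strand, had signals of 26.0 (rank 415) and 24.1 (rank 138). The region at C51F7.3 (WBGene00014290; chrV:12303506-12303861) also covers the start of C51F7.4, within the FERM domain gene frm-7, and had 28.4 (rank 296) and 18.3 (rank 446). Its IDR summit was 42 bp before C51F7.3, over the B box shown above. D1046.6 (WBGene00045136; chrIV:8927092-8927449), in an intron of the pre-mRNA cleavage factor gene cfim-2, had 34.1 (rank 156) and 13.4 (rank 2078). A tRNA pseudogene start lies 70 bp from its nearest replicate summit, and its part in this region was not tested.

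The summit windows of 5 IDR regions that have no box pair are shown to let the sequence be read beside the signal. The window of F59C6.15, which also has no pair, is not shown. Each holds 151 bases around the IDR summit on the plus strand of ce11, with any of the searched words in capitals, at chrIII:5679062-5679212 for F54E7.10, chrIV:11082920-11083070 for M7.15, chrV:8500476-8500626 for ZK994.7, chrII:11635241-11635391 for ZK20.9 and chrIV:8927180-8927330 for D1046.6.
F54E7.10: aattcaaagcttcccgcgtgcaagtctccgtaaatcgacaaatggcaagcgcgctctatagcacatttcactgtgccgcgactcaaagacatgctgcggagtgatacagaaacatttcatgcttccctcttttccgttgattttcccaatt
M7.15: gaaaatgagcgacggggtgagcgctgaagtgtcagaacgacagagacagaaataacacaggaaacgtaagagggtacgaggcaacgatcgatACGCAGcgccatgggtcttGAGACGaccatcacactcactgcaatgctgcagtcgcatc
ZK994.7: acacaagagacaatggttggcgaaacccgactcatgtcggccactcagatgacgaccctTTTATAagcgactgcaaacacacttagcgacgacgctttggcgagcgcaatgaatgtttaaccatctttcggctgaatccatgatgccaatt
ZK20.9: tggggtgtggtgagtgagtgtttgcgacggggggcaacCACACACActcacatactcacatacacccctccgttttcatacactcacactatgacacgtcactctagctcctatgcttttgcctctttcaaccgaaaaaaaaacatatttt
D1046.6: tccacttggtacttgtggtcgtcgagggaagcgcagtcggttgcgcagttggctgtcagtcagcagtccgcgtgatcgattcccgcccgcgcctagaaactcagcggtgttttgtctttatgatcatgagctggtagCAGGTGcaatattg
In these 151 bases F54E7.10 held none of the words, and M7.15 held ACGCAG and the reverse complement of CGTCTC. ZK994.7 held the reverse complement of TATAAA, ZK20.9 overlapping copies of CACACA, and D1046.6 a CAGGTG. The shares given next use 100 bp to each side of the summit, a wider window that may hold further words.

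The words were searched on both strands within 100 bp of the strongest summit of each region and compared with all 36977 merged regions. CAGGTA or CAGGTG was present in 7 of 147 regions (4.76%, 2.33 to 9.50), against 9.47% of all regions. In the IDR peaks at snoRNA starts it was present in 3 of 8, against 7.72% of all 246 IDR peaks, so its share differed with the list used and rested on few regions. CACACA stood in 17.0% against 9.16%, CGTCTC in 12.2% against 6.14%, GAGAGA in 18.4% against 11.7%, ACGCAG in 7.48% against 4.73% and TATAAA in 21.8% against 22.9%. All of these words but TATAAA were chosen with earlier results of these data in view, and the IDR peaks as a whole held 4 of them at higher shares (CACACA 34.1%, CGTCTC 42.3%, GAGAGA 49.6%, ACGCAG 33.7%). The exact A box was in 6.12% of the snoRNA regions (9 of 147) against 0.279% of all regions, and the exact B box in 7.48% (11 of 147) against 1.69%. Rows at tRNA starts held the exact A box in 6.09% and the exact B box in 38.8%. In 300 base windows at gene starts, taken without regard to any region, the B box was in 7.80% at snoRNA starts and 1.58% at protein-coding starts. The A box was in 4.05% and 0.150%, CACACA in 22.3% and 15.5%, CGTCTC in 16.5% and 11.2%, and GAGAGA in 24.9% and 21.8%. ACGCAG was in 10.1% and 8.23%, CAGGTA or CAGGTG in 15.0% and 15.3%, and TATAAA in 24.9% and 37.9%. These windows are longer than the summit windows. Whether the regions differ from snoRNA starts as such in these words was not tested.

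The remaining regions with the highest ranks were of mixed context. Completing the 10 shared regions with the highest mean percentile, W06H8.17 had signals of 23.5 (rank 642) in replicate 1 and 14.9 (rank 1262) in replicate 2. Y75B12B.12, which has a box pair, had 23.4 (rank 659) and 12.4 (rank 3135). The strongest regions of replicate 1 alone were at C04G6.12 (signal 25.6, with a box pair, in an intron of the MAP kinase gene mpk-2 on the opposite strand), F19H8.6 (23.9), F39B2.14 (23.3), F28C6.11 (22.7) and B0334.12 (22.4). Of these, the summits at F39B2.14 and F28C6.11 were 36 and 42 bp from the starts of tmem-107 and of rpl-26, a gene of the large ribosomal subunit, and that at F19H8.6 was 79 bp from a tRNA pseudogene start. The strongest of replicate 2 alone were at C02F5.15 (18.7), T06C12.16 (17.5), C27H5.9 (17.1), F09G2.14 (16.3) and F37F2.4 (16.1). Of these, the summits at C02F5.15, F09G2.14 and F37F2.4 were 200, 258 and 264 bp from a protein-coding start. All 10 regions of these single-replicate sets overlapped a pooled region and none overlapped an IDR peak.

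The shares of starts with a summit inside and outside host genes had overlapping intervals. Of 146 starts in an intron of a protein-coding gene on the same strand, 30 (20.5%, 14.8 to 27.8) had one in replicate 1 and 49 (33.6%, 26.4 to 41.6) in replicate 2. Of 130 starts outside protein-coding genes it was 31 (23.8%, 17.3 to 31.9) and 47 (36.2%, 28.4 to 44.7). In the pooled list the shares were 11.6% (7.40 to 17.9) in introns and 20% (14.0 to 27.7) outside genes. Starts in an intron on either strand made up 75 of the 143 starts with a summit (52.4%) and 50.9% of all 346 starts. The 19 starts hosted by ribosomal protein genes had summits at 5 in replicate 1 (26.3%, against 22.0% of all snoRNA starts) and at 4 in replicate 2 (21.1%, against 33.2%).

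Nearness to protein-coding starts was like that of the lists as a whole. A summit within 300 bp of a protein-coding start was found in 20 of the 147 regions (13.6%), against 14.7% of all replicate 1 rows and 13.2% of all replicate 2 rows. snoRNA starts that lie farther than that from a protein-coding start had a summit in 64 of 303 cases (21.1%, 16.9 to 26.1) in replicate 1. In replicate 2 it was 103 (34.0%, 28.9 to 39.5). Of the 43 snoRNA starts within 300 bp of a protein-coding start, 12 (27.9%, 16.7 to 42.7) had a summit in each replicate. The intervals overlapped in both lists, and the order differed between them. A tRNA pseudogene start was near 3 regions and an snRNA start near 1. By chromosome, X had the lowest shares, but on few starts. It had 4 of 33 (12.1%, 4.82 to 27.3) in replicate 1, against 22.0% of all snoRNA starts. In replicate 2 it had 5 (15.2%, 6.65 to 30.9), against 33.2%. The replicate 1 interval holds the share of all snoRNA starts, and the replicate 2 interval ends below it. Chromosome V had 12 of 55 in replicate 1 and 28 of 55 (50.9%) in replicate 2, so its place in the order changed with the replicate.

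The boxes of the mature RNA were read from the gene sequence. Box C (TGATGA in the first 25 bases) together with box D (CTGA in the last 25) matched in 15 of 346 genes, and ACA in the last 6 bases in 78 others. These strict spellings leave 253 genes in neither set and do not class the RNAs. Both replicate lists had a summit at 7 of the 15 genes with box C and box D (46.7%, 24.8 to 69.9). It was 11 of the 78 with ACA (14.1%, 8.06 to 23.5) and 30 of the 253 others (11.9%, 8.43 to 16.4). In at least 1 list the shares were closer, with overlapping intervals. They were 53.3% (30.1 to 75.2), 46.2% (35.5 to 57.1) and 39.1% (33.3 to 45.3) in the same order. Of the 15 genes 5 also have the upstream box pair, and among the 10 that do not, 3 had summits in both lists. Genes with both boxes made up 8 of the 143 starts with a summit in either list (5.59%) and 4.34% of all 346.

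The genes of the proteins that act with snoRNAs were looked at as a separate list of 8. Replicate 1 had a summit within 300 bp of the starts of 2 of them (25%, Wilson 95% interval 7.15 to 59.1, against 9.04% of all protein-coding starts), nol-58, a core protein of box C/D particles, and dkc-1 (K01G5.5), the pseudouridine synthase of H/ACA particles. Replicate 2 had one at 7 of 8 (87.5%, 52.9 to 97.8, against 20.4%), which adds fib-1 (fibrillarin, the methyltransferase), nol-56, nola-3, Y48A6B.3 and snu-13 (M28.5), and leaves out garr-1 (Y66H1A.4). The pooled list had 3 (nol-56, nol-58 and nola-3, against 4.03%) and the IDR list 0 (against 0.461%). Of the 7 replicate 2 rows 5 ranked from 13121 to 19469 of 30000, near the middle of the list or below it, with nola-3 at 3167 and Y48A6B.3 at 276. nol-56 is itself a host of 4 snoRNA genes, and 3 of their starts had a summit in replicate 2 and 1 in replicate 1, where all snoRNA starts gave 33.2% and 22.0%. The replicate 2 row at the nol-56 start (rank 16274) is also the row at its hosted snoRNA K07C5.11. That row therefore enters both counts, which are not separate observations.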

How the data were processed

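ChIP-seq peak lists of 2 biological replicates were used, with 1 list per replicate, 1 pooled list and 1 IDR list in the ce11 build. The ce10 lists and the control reads were not used here. Each list holds a signal per region in a unit of the authors' caller, deposited by the authors, which served only for ranks inside that list. A second deposited column gives the −log10 of each region's q-value and was tried in its place. For the aligner, caller and IDR threshold, the sources used here give no name or value. Read depth is unknown.

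Summits were placed on the WBcel235 genome of RefSeq with the Ensembl 115 annotation, and tRNA pseudogenes came from the RefSeq annotation. Rows overlapping by at least 1 bp were merged. Words were searched in the genome, and summit windows of 100 bp to each side were used for regions. Starts outside the 6 nuclear chromosomes were left out. Shares have Wilson 95% intervals, which cover counting over starts or regions and not variation between worms. No test across regions was made, and 1 group allows no test between groups.

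The regions, the word list and the tests were chosen with earlier results of these data known. The rule for named genes took the snoRNAs of regions at IDR peaks, the 10 shared regions of highest mean percentile, the 5 strongest of each replicate alone, the 3 starts on each side of the 300 bp limit, their host and neighbouring genes, and the snoRNP protein genes. Genes with a box pair were named after their values were seen. The alternatives were other distances, overlaps, windows and lists, each replicate alone, and, chosen after seeing the data, other box spacings and spellings. The selection and merging steps were tested on simulated summits. Python 3.11.15, numpy 2.4.6, pandas 2.3.3, scipy 1.17.1, Biopython 1.88 and matplotlib 3.10.9 were used.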

Additional observations from a re-analysis of the deposited data

How the results depend on the processing

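Of 138 alternative values, 92 stayed within the interval, the replicate spread or 1.5 times of the value reported, and 46 moved; the cause was not tested. The share of snoRNA starts with a summit in at least 1 replicate list (41.3%) was 21.4% at 100 bp, 33.5% at 200 bp, 52.9% at 500 bp, 29.5% in the stronger 50% of each list, 15.9% in the pooled list, 2.60% in the IDR list, and 22.0% to 33.2% with 1 replicate left out. The 147 regions became 73 at 100 bp, 54 in the pooled list, 8 in the IDR list, and 74 to 118 with 1 replicate left out, and 74 is the number without replicate 2. In the stronger 50% the median percentile of 65.2 was 83.0, the share with rows of both replicates 21.2% and the median summit position -31.5 bp. That position was -26 bp at 500 bp and -35 bp in the IDR list, where the median percentile within that list was 35.0. Starts in introns were 43.6% of those with a summit in the pooled list. The share of starts with a box pair that had a summit (81.8% in at least 1 replicate list) was 50% at 100 bp, 13.6% in the IDR list and 59.1% to 72.7% with 1 replicate left out. It stayed at 83.3% with a narrower spacing and at 70% for either exact box, alternatives chosen after seeing the data. Genes with box C and box D were 12.7% of starts with a summit in the pooled list and 11.1% in the IDR list. With windows of 50 bp to each side of the summit the words were in 1.36% of regions (CAGGTA or CAGGTG), 10.9% (GAGAGA), 8.16% (CACACA), 6.80% (CGTCTC), 3.40% (ACGCAG) and 10.9% (TATAAA). With 200 bp they were in 12.2%, 32.0%, 29.3%, 21.8% (CGTCTC) and 39.5% (TATAAA), and the B box in 12.9%. In the pooled list CAGGTA or CAGGTG was in 13.0%, CACACA in 25.9%, ACGCAG in 16.7% and the A box in 13.0%. In the 8 IDR regions CAGGTA or CAGGTG was in 37.5%, CACACA in 37.5%, TATAAA in 37.5%, CGTCTC in 25%, and both the A box and GAGAGA in 12.5%.

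No paired analysis was possible because all samples form 1 group. The main limits are that the lists contain background, that the replicate 2 list is longer than the replicate 1 list, that neither read depth nor a sample without the tag was analysed, and that only 8 regions reached the IDR list. Box spellings are fixed words, so a start without a match may still have a diverged box, and the 22 starts with a pair give wide intervals.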
